A study of Mus musculus with 8 samples.

Results

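Arg1, Fbp1 and Egr2 are 3 genes used as markers of macrophage activation, and each was measured by 1 probe on a mouse expression array that gave values for 11597 genes from 16251 probes. They were picked by gene symbol after their levels in the 4 groups of this study had been seen. Their own values are therefore given as descriptions, without p-values. The RNA came from lung interstitial leukocytes, the white blood cells freed by collagenase digestion of the lung and collected on a density gradient. Each of 8 arrays set this RNA (Cy5) against a universal mouse reference RNA (Cy3), with 2 arrays in each of 4 groups.

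The groups crossed genotype with exposure in mice aged 6 to 8 weeks. Wild-type (WT) C57Bl/6 mice received nasal instillations of 25 µl of saline alone or of saline carrying 1 mg of crystalline silica, weekly for 4 weeks. Rag1-/- mice, called RagKO here, received the same saline or silica. Rag1-/- mice make no mature T or B cells but keep macrophages, granulocytes and innate lymphoid cells, and their background strain is not named in the labels. These mice also got 300 µg of an anti-NK1.1 antibody per injection, before and throughout the study, to remove natural killer cells. The Rag1 deletion and the antibody came together, so their effects cannot be told apart. All mice were anaesthetised with ketamine for the instillations. Replicates are biological per the labels, with the number of mice behind each not stated, so every p-value measures only the spread between these arrays.

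Arginase 1, encoded by Arg1, splits arginine into ornithine and urea and so withdraws arginine from nitric oxide synthase. In mouse macrophages it is a textbook target of interleukin 4 and interleukin 13 acting through the transcription factor STAT6. Fbp1 encodes fructose bisphosphatase, which reverses a committed step of glycolysis and is best known from gluconeogenesis in liver and kidney. Egr2 encodes a zinc finger transcription factor of the early growth response family, which is switched on within a short time by growth factor or antigen receptor signals, is held back by the NAB corepressors, and marks alternatively activated macrophages in mice.

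Arg1 lies on mouse chromosome 10 from 24915207 to 24927470 and Egr2 on the same chromosome from 67534469 to 67542188, while Fbp1 lies on chromosome 13 from 62864753 to 62888298 (gene bounds in GRCm38.p6). The probes were assigned to the transcripts by the platform annotation, and the exon that each one reads was not determined. RefSeq start-site windows of 300 bases, from 250 before to 50 after the start, were matched for Egr2 and Fbp1. The Egr2 window is shown because many immediate early genes, the class of Egr2, rose after silica in each genotype. The Fbp1 window is shown because Fbp1 had the largest silica difference of all genes in RagKO. Capitals mark a CArG box, the serum response factor motif, in the Egr2 window (chr10:67537619-67537918, plus strand) and the PU.1 motif GAGGAAGT in the Fbp1 window (chr13:62888233-62888532, minus strand), both read 5′ to 3′ on the strand of the gene.
Egr2: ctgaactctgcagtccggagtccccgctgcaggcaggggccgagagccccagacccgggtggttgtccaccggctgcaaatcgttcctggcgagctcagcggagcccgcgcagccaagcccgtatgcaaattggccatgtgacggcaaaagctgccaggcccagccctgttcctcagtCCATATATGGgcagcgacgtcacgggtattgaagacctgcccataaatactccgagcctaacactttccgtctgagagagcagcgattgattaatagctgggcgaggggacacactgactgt
Fbp1: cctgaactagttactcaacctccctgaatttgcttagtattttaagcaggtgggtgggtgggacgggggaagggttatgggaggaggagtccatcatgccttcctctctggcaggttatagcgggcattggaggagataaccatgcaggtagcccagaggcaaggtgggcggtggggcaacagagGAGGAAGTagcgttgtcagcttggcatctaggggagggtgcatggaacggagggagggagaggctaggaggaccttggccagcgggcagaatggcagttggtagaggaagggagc
The CArG box of Egr2 spans bases 72 to 63 before the start site, and 1.63% of 32817 such windows of all genes hold 1 on either strand. The Fbp1 motif spans bases 65 to 58 before the start, and 3.2% of windows hold it. RefSeq lists 5 start windows for Egr2, several of which overlap, and 4 of them hold a CArG box. Searched on both strands, the STAT6 motif with TTC and GAA separated by 4 bases (in 6.94% of windows), TTCNNNGAA (8.29%) and the EGR motifs GCGTGGGCG (0.612%) and GCGGGGGCG (2.91%) had no match in the windows of Egr2 or Fbp1, and the CArG and PU.1 matches overlap none of these. A match in a window is a description of its letters and no evidence of binding.

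Several features of the arrays bear on these genes and were examined first. The 2 arrays of a group correlated with r between 0.9773 and 0.9888 over the probes. Rag1 was not analysed here, so the deleted gene gives no check of the labels. The B cell gene Ms4a1 was -6.70 lower on the log2 scale in RagKO than in WT after saline and -6.36 lower after silica, and the T cell gene Cd5 -3.95 and -4.35 lower. No gene measured here checks which WT arrays had silica. The 2 RagKO silica arrays differ in sex-linked transcripts, with the first X-inactivation (Xist) probe at -2.71 and 2.22 and the Y-linked Eif2s3y at 2.42 and -2.22. Arg1 and Fbp1 differ between the same arrays. These transcripts also differ between other groups. Eif2s3y read 2.32 and 2.27 in WT saline, 0.34 and 1.05 in WT silica, and 2.90 and 2.60 in RagKO saline. The same Xist probe read -0.24 and -0.21, 0.82 and 0.48, and -2.47 and -2.64 in that order. The other Xist probe read 0.17 and -0.15, 0.25 and -0.02, and -0.71 and -0.81, so on it the WT groups overlapped. By Eif2s3y and the first Xist probe, neither the silica comparison in WT nor those between genotypes are free of a difference in sex-linked transcripts. The ribosomal transcript Rn28s1 moved in every comparison of groups, with silica minus saline of -1.38 in WT and -1.53 in RagKO and RagKO minus WT of -1.43 after saline and -1.59 after silica. The part of these in the results was not tested. All log2 values rest on reading the deposited ratios as log10, and a log2 ratio near 0 can mean equal signal in both channels or no signal above background in either, which the deposited values do not separate.

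Arg1 was high in WT mice after saline and in RagKO mice after silica, and low in the other groups. Its log2 ratio over the reference was 3.41 and 3.45 in WT saline, 1.08 and 0.65 in WT silica, 1.06 and 1.38 in RagKO saline, and 3.75 and 5.01 in RagKO silica. Exposure thus separated the arrays in opposite directions in the 2 genotypes, with no overlap of saline and silica arrays in either. On a linear scale the ratio ran from 1.58 times the reference on the lowest WT silica array to 32.2 times on the higher RagKO silica array. Silica minus saline was -2.56 in WT (SE 0.32), a 5.91-fold lower ratio, and 3.16 in RagKO (SE 0.32), an 8.93-fold higher one. RagKO minus WT was -2.21 after saline and 3.51 after silica, the latter 11.4-fold. In order of group means, RagKO silica (4.38 ± 0.89, SD, n = 2) stood above WT saline (3.43 ± 0.028), then RagKO saline (1.22 ± 0.23) and WT silica (0.87 ± 0.30). The gap of 0.29 between the upper pair is smaller than the 1.26 between the RagKO silica arrays, and the lower pair overlapped, so neither pair differed beyond its spread.

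Fbp1 followed the same crossed pattern with a wider range. It read 4.20 and 4.13 in WT saline, 0.37 and 0.97 in WT silica, -0.19 and -0.18 in RagKO saline, and 3.56 and 5.02 in RagKO silica. The WT saline and RagKO silica arrays were high and overlapped each other, whereas the other 4 arrays were all below 1 on this scale. Silica minus saline was -3.49 in WT (SE 0.36, 11.3-fold lower) and 4.47 in RagKO (SE 0.36, 22.1-fold higher). RagKO minus WT was -4.35 after saline (20.4-fold lower) and 3.62 after silica (12.3-fold higher). WT silica exceeded RagKO saline by a gap of 0.55, within the 0.59 that separates the WT silica arrays, so these low groups did not differ beyond their spread. The RagKO saline ratio lies near 0, where background cannot be told from signal, so the folds against that group are uncertain.

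Egr2 had a different shape, in which only RagKO saline stood apart. It read 1.61 and 1.57 in WT saline, 2.07 and 2.07 in WT silica, -0.11 and 0.03 in RagKO saline, and 1.74 and 1.84 in RagKO silica. The RagKO saline arrays sat at least 1.54 below every array of the other groups. Silica minus saline was positive in both genotypes, 0.48 in WT (SE 0.11, 1.40-fold) and 1.83 in RagKO (SE 0.11, 3.56-fold). RagKO minus WT was -1.63 after saline and -0.28 after silica. The RagKO saline ratios of Egr2 also lie near 0, where background cannot be told from signal, so the differences against that group are uncertain. WT silica stood above RagKO silica by 0.23 and RagKO silica above WT saline by 0.13, each gap larger than the spread of at most 0.10 within those groups, but quantile normalization brought RagKO minus WT after silica from -0.28 to -0.1374. With 2 arrays a group that spread is itself poorly known.

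**Figure D1:**
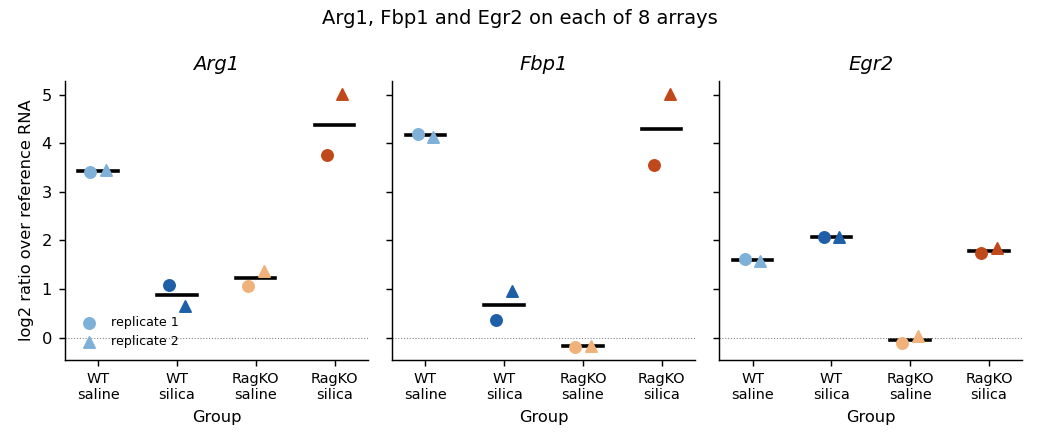
Log2 ratio over the reference RNA (y axis) of Arg1, Fbp1 and Egr2 on each of the 8 arrays by group (x axis), with circles for replicate 1, triangles for replicate 2 and black lines for group means. Arg1 and Fbp1 are high in WT saline and RagKO silica and low in the other groups, with the RagKO silica arrays 1.26 and 1.46 apart, and Egr2 is low in RagKO saline alone.

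The difference between the silica effects, RagKO minus WT, was 5.72 for Arg1 (SE 0.45) and 7.96 for Fbp1 (SE 0.52), against 1.35 for Egr2 (SE 0.15). Among 11597 genes these rank second for Arg1 and first for Fbp1, and 177th among 5797 positive values for Egr2. These ranks describe the contrast that led to the choice of genes. Fbp1 also had rank 1 among rises in RagKO and rank 2 among falls in WT, and Arg1 rank 5 and rank 14. Across all genes, 139 others passed the test downward in WT and upward in RagKO (limma, adjusted p below 0.05, as for all calls here), and 332 passed in the opposite pattern. Of those 139, 5 moved at least 2-fold both ways. They were the eosinophil chemokine gene Ccl24, the chitinase-like genes Chil3 and Chil4, the goblet cell gene Clca1, and Gatm, which makes the creatine precursor from arginine. A single gene other than Arg1 and Fbp1, Ccl24, moved at least 4-fold both ways. Apart from Egr2, whose differences were positive in both genotypes and were not tested, 348 genes passed upward in both.

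**Figure D2:**
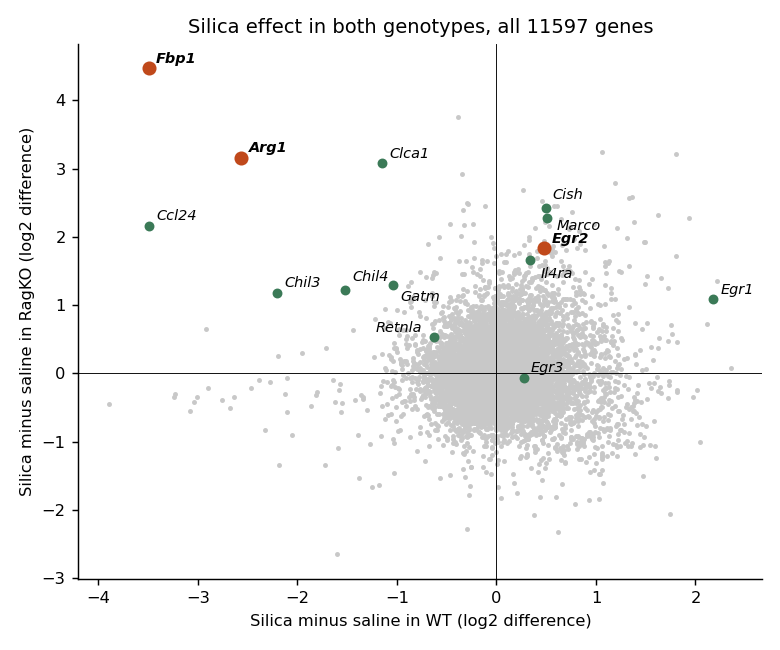
Silica minus saline in WT (x axis) against silica minus saline in RagKO (y axis), both as log2 differences, for all 11597 genes, with the 3 members in red and other named genes in green. Fbp1 (-3.49 and 4.47) and Arg1 (-2.56 and 3.16) lie in the upper left corner with Ccl24, and Egr2 (0.48 and 1.83) lies near Marco and Il4ra.

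The difference between the RagKO silica arrays is a limit on both high values. Replicate 2 exceeded replicate 1 by 1.26 for Arg1 and 1.46 for Fbp1, gaps reached by 17 and 12 of 11597 genes, against a median gap of 0.14. Ccl24 differed by 2.28, from -0.75 to 1.53. Other genes with the crossed shape varied in this. Gatm read 0.87 and 1.64 and Igf1 1.44 and 2.03, with replicate 2 higher as well. Clca1 at 5.31 and 5.37, Chil4 at 7.16 and 7.32, and Chil3 at 7.50 and 7.80 were closer. Egr2 differed by 0.10. Without replicate 1 the RagKO silica difference was 3.79 for Arg1 and 5.198 for Fbp1, and without replicate 2 it was 2.53 and 3.74. Both arrays thus lay above both RagKO saline arrays, by at least 2.37 for Arg1 and 3.74 for Fbp1.

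The genes whose log2 ratios followed each member most closely over the 8 arrays were sought among 3267 genes that varied (SD of at least 0.5), by Pearson r without a test, since the arrays share groups. For Arg1 these were the metalloproteinase inhibitor gene Timp1 (r = 0.945), Fbp1 (0.941), the growth factor gene Igf1 (0.938), Ppig (0.92), Tent5c (0.917) and Clca1 (0.915). For Fbp1 they were Chil4 (0.957), Arg1 (0.941), the osteoclast fusion gene Ocstamp (0.929), Ccl24 (0.924), Clca1 (0.922) and Gatm (0.917). Fbp1 was thus second in the list of Arg1, and Arg1 second in the list of Fbp1. Igf1 read 0.97 and 0.99 in WT saline, 0.37 and -0.09 in WT silica, 0.62 and 0.61 in RagKO saline, and 1.44 and 2.03 in RagKO silica, a narrower range than that of Arg1. Clca1 read 4.19 and 4.11, 2.95 and 3.05, 2.35 and 2.16, and 5.31 and 5.37 in the same order.

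Egr2 had its own neighbours and shared none with Arg1 or Fbp1. They were the macrophage scavenger receptor gene Marco (r = 0.988), Ankrd33b (0.988), the collagen gene Col3a1 (0.987), the spermine oxidase gene Smox (0.981), the guanylate-binding protein gene Gbp4 (0.977) and Nrros (0.976), a regulator of reactive oxygen. Marco read 6.57 and 6.56 in WT saline, 7.07 and 7.08 in WT silica, 4.10 and 4.11 in RagKO saline, and 6.38 and 6.39 in RagKO silica. As with Egr2, the RagKO saline arrays alone were low. Col3a1, a fibroblast product, read -0.87 and -0.97, -0.08 and -0.45, -2.80 and -2.65, and -0.76 and -0.92 in the same order. Egr2 itself correlated with Arg1 at r = 0.341 and with Fbp1 at 0.538.

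**Figure D3:**
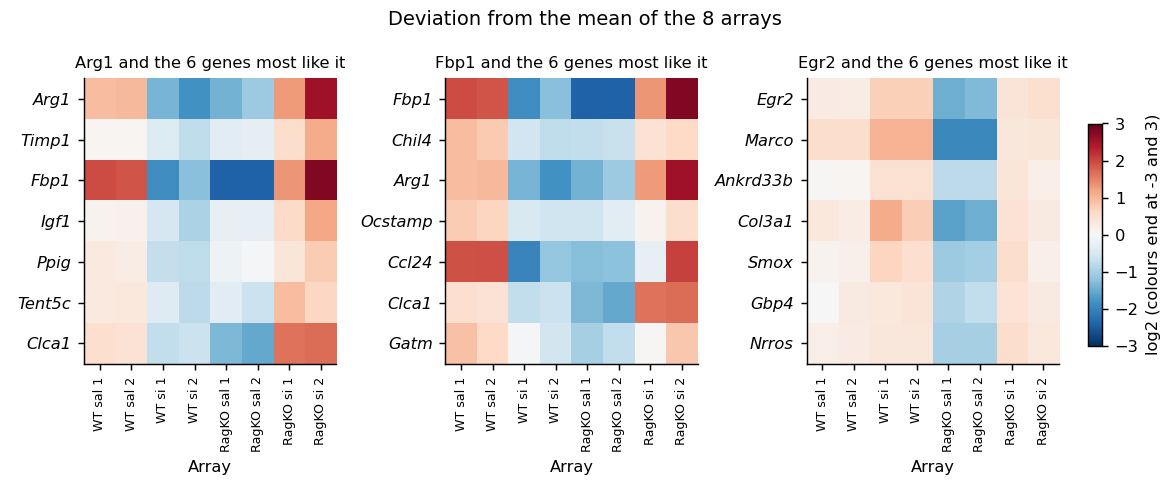
Each member and the 6 genes most like it (rows) on the 8 arrays (columns, grouped as WT saline, WT silica, RagKO saline and RagKO silica), coloured by the deviation from the gene's mean over the 8 arrays on the log2 scale. In the Arg1 and Fbp1 panels most genes lie above their mean in WT saline and RagKO silica, with Ccl24 above it on only the second RagKO silica array (-0.75 and 1.53), and in the Egr2 panel the RagKO saline arrays are the low ones.

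Other genes of arginine metabolism had no common direction, and the share that fell in WT was near that of all genes. In WT, 5 of 23 measured genes of the arginine, polyamine and proline list rose after silica and 2 fell, against a background of 11.5% of all genes higher and 8.21% lower. In RagKO, 7 of 23 rose and 5 fell, against 16.8% and 15.9%. The median difference was 0.07 in WT (all genes -0.01) and 0.05 in RagKO (all genes -0.03). Without RagKO silica replicate 1 the counts in RagKO were 4 and 1, without replicate 2 they were 6 and 3, and without WT silica replicate 2 those in WT were 2 and 1. Arg2, the mitochondrial arginase, read 2.81 and 2.96 in WT saline, 3.04 and 2.63 in WT silica, 3.12 and 3.48 in RagKO saline, and 4.07 and 3.84 in RagKO silica. It rose in RagKO alone by the test (0.65, adjusted p = 0.0147), with -0.05 in WT (adjusted p = 0.869) and a difference between the effects of 0.70 that missed the threshold (adjusted p = 0.0574).

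Single genes of arginine, ornithine and polyamine metabolism gave mixed results. Odc1, the first enzyme of polyamine synthesis, rose in both genotypes, by 0.52 in WT (adjusted p = 0.0168) and 0.72 in RagKO (adjusted p = 0.00211). The ornithine aminotransferase gene Oat rose by 0.71 in WT and was 2.93 higher in RagKO than in WT after saline. The spermidine synthase gene Srm fell by 0.67 in WT. Smox rose by 1.39 in RagKO and by 0.45 in WT (adjusted p = 0.0422). The arginine-rebuilding Ass1 rose by 0.69 in RagKO and had 0.11 in WT (adjusted p = 0.53). Gatm, which draws on arginine, fell by 1.04 in WT and rose by 1.29 in RagKO. The arginine transporter gene Slc7a2, missing on 1 array and not tested, read between 0.58 and 1.68 on the others.

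Of 28 measured genes of the gluconeogenesis and glycolysis list, 2 rose and 1 fell in WT after silica (all genes 11.5% and 8.21%), with a median of 0.08. In RagKO 8 rose and 4 fell (all genes 16.8% and 15.9%), with a median of 0.16, and the share that fell was near that of all genes. The lactate dehydrogenase gene Ldhb went against Fbp1 in both genotypes, with 1.07 in WT and -1.61 in RagKO. The phosphofructokinase gene Pfkp, whose enzyme catalyses the step that Fbp1 reverses, rose by 0.84 in RagKO, and the hexokinase gene Hk3 by 0.92. Pck2, a gluconeogenic carboxykinase of mitochondria, had -0.27 in WT and -0.02 in RagKO, and neither passed the test (adjusted p = 0.123 and 0.912). Without RagKO silica replicate 1, 5 genes rose and 3 fell in RagKO. In WT the counts were 1 and 1 without silica replicate 1, where the median turned to -0.05, and 3 and 0 without replicate 2.

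Many immediate early genes, though not all, rose after silica. Of 28 measured genes of the EGR, NAB and immediate early list, 14 rose and 0 fell in WT (all genes 11.5% and 8.21%). In RagKO 19 rose and 0 fell (all genes 16.8% and 15.9%). The medians were 0.62 in WT and 0.63 in RagKO, and 14 and 9 genes did not pass. In the difference between the silica effects 1 was higher and 2 lower (all genes 11% and 12.3%), and this split was 0 and 5 without RagKO silica replicate 1, 4 and 1 without replicate 2, and 1 and 4 without WT silica replicate 1. Among the family members, Egr1 read -1.30 and -1.13 in WT saline, 0.67 and 1.26 in WT silica, -2.18 and -1.89 in RagKO saline, and -0.76 and -1.14 in RagKO silica. Its rise was 2.18 in WT (adjusted p = 0.000142) and 1.09 in RagKO (adjusted p = 0.00286), and the RagKO effect was smaller by the test of the difference (-1.09, adjusted p = 0.0193). In Egr2 the larger difference was in RagKO. Egr3 did not pass in either genotype (0.27 and -0.06, adjusted p = 0.197 and 0.751).

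Between genotypes the same list was lower in RagKO. After saline 18 of 28 genes were lower and 5 higher, against a background of 29.2% lower and 37% higher, and after silica 17 were lower and 4 higher, against 26.4% and 33.7%. Dusp2, a phosphatase that dampens MAP kinases, was lower by -4.21 after saline and by -3.19 after silica. Egr3 was lower by -1.23 (adjusted p = 2.71e-05) and by -1.57 (adjusted p = 9.6e-06), and Egr1 by -0.82 (adjusted p = 0.00427) and by -1.91 (adjusted p = 2.43e-05). Of the corepressor genes, Nab1 was higher in RagKO by 1.00 after saline (adjusted p = 1.06e-05) and by 1.07 after silica (adjusted p = 1.23e-05), while Nab2 had 0.19 and -0.07 (adjusted p = 0.164 and 0.596). Myc, paired with Egr2 as a marker of alternative activation in mice, was -1.17 lower after saline and -1.03 lower after silica (adjusted p = 1.34e-05 and 4.99e-05), and silica moved it by 0.05 in WT and 0.20 in RagKO (adjusted p = 0.791 and 0.236). In bulk RNA, fewer cells of a type and less RNA per cell cannot be told apart.

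Genes of the cytokine pathway named above for Arg1 were counted next, and the part of this pathway in the levels of Arg1 was not tested. Of 27 measured genes of the interleukin 4, interleukin 13 and STAT6 list, 13 rose and 0 fell after silica in RagKO (all genes 16.8% and 15.9%), and 5 rose and 1 fell in WT (all genes 11.5% and 8.21%). The receptor gene Il4ra read 1.50 and 1.63 in WT saline, 1.92 and 1.89 in WT silica, 0.23 and 0.42 in RagKO saline, and 2.22 and 1.76 in RagKO silica. It rose by 1.66 in RagKO (adjusted p = 7.75e-05), had 0.34 in WT (adjusted p = 0.141), and the effects differed by 1.32 (adjusted p = 0.00192). Cish, a cytokine-inducible feedback inhibitor, rose by 2.43 in RagKO and the histone demethylase gene Kdm6b by 1.51. Stat6 rose by 0.39 in RagKO (adjusted p = 0.0217) and had -0.05 in WT (adjusted p = 0.783). The ligand gene Il4 did not share the pattern of Arg1, with 0.58 in WT (adjusted p = 0.0109) and -0.34 in RagKO (adjusted p = 0.0597). After saline Il4 was 1.07 higher in RagKO (2.86 and 2.94) than in WT (1.81 and 1.85, adjusted p = 3.44e-05). Without RagKO silica replicate 1 the RagKO counts were 8 and 1, and the WT counts were 3 and 1 or 3 and 0 without silica replicate 1 or 2.

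In the contrast of both silica effects, 8 genes of this list were higher and 2 lower (all genes 11% and 12.3%). Among alternative activation genes, without the 3 members, 16 of 30 were higher and 3 lower in that contrast. In WT 6 of the 30 rose and 10 fell after silica (all genes 11.5% and 8.21%), with a median of -0.12. In RagKO 16 rose and 3 fell (all genes 16.8% and 15.9%), with a median of 0.52. Chil3 read 8.27 and 8.21 in WT saline, 5.82 and 6.24 in WT silica, 6.31 and 6.62 in RagKO saline, and 7.50 and 7.80 in RagKO silica. It fell by 2.20 in WT (adjusted p = 6e-05) and rose by 1.18 in RagKO (adjusted p = 0.00072). Retnla, which encodes a resistin-like protein induced by the same cytokines, fell by 0.63 in WT (adjusted p = 0.00336) and rose by 0.53 in RagKO (adjusted p = 0.00475). The mannose receptor gene Mrc1 fell by 0.47 in WT (adjusted p = 0.0468) and had 0.31 in RagKO (adjusted p = 0.131). Without WT silica replicate 2 the WT counts of this list were 4 and 6.

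Not all alternative activation genes followed Arg1, and classical ones rose as well. In WT the chemokine gene Ccl17 rose by 1.49 and the cadherin gene Cdh1, also an epithelial marker, by 1.38, both against the direction of Arg1. In RagKO the scavenger receptor gene Msr1 rose by 1.26 and the acid lipase gene Lipa by 1.48, both in the direction of Arg1 there. Of 20 classical activation genes, 15 rose and 1 fell in RagKO (all genes 16.8% and 15.9%), with a median of 0.92. In WT 6 rose and 3 fell (all genes 11.5% and 8.21%), with a median of 0.23. Gbp5 rose by 2.49, Il1a by 2.26 and Irf5 by 1.73 in RagKO, and Cxcl10 rose by 1.62 in WT and 2.32 in RagKO. The WT counts were 4 and 3 without silica replicate 1 and 7 and 0 without replicate 2. Nos2, the synthase that competes with Arg1 for arginine, was not analysed here, nor were Il13, Fbp2, Egr4 and Pck1.

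**Figure D4:**
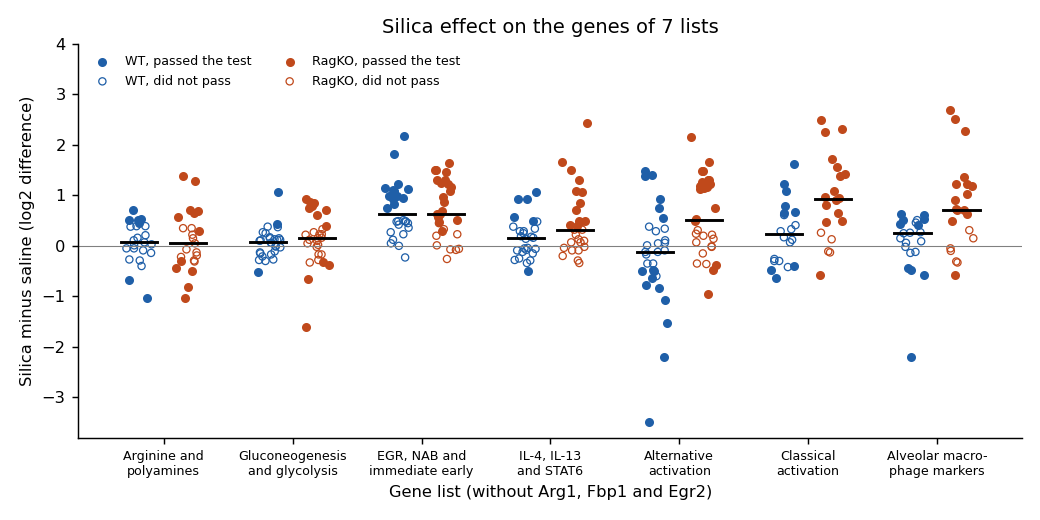
Silica minus saline (y axis, log2 difference) for each measured gene of 7 lists (x axis) without the 3 members, in WT (blue) and RagKO (red). Filled points passed the test, open points did not, and black lines are medians, which are 0.62 and 0.63 for immediate early genes and -0.12 and 0.52 for alternative activation genes.

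Of 21 alveolar macrophage markers, which include Chil3, Mrc1 and Marco, 14 rose and 1 fell after silica in RagKO, and 6 rose and 4 fell in WT (4 and 3 without WT silica replicate 1, 4 and 1 without replicate 2). Of all genes, 16.8% rose and 15.9% fell in RagKO, and 11.5% rose and 8.21% fell in WT. The mean log2 ratio of the alveolar list ranged over the arrays from 3.15 to 3.20 in WT saline and 3.21 to 3.26 in WT silica. In RagKO it ranged from 2.75 to 2.79 after saline and 3.52 to 3.63 after silica. The summed ratio went from 269.1 to 289.8 in RagKO saline and from 526.5 to 592.6 in RagKO silica. In WT it went from 641.4 to 661.9 after saline and from 458.7 to 470.6 after silica. Chil3, which has the pattern of Arg1, sets that fall, since without it the sum of the other 20 markers was 345.3 to 353.9 after saline and 394.8 to 402.1 after silica. The cathepsin gene Ctsk rose by 2.69 and Marco by 2.28 in RagKO. Of 19 pan-macrophage and monocyte markers, 8 rose and 1 fell in RagKO (all genes 16.8% and 15.9%), and 1 rose and 0 fell in WT, below the 11.5% and 8.21% of all genes. Of 14 interstitial macrophage markers, 8 rose and 2 fell in RagKO, and 2 rose and 4 fell in WT, where the falls were 6 and 0 without silica replicate 1 or 2. The 2 interstitial rises in WT were near the 11.5% of all genes. The pan-macrophage mean lay between 2.20 and 2.51 in WT silica and between 3.06 and 3.07 in RagKO silica. The part of macrophage number in the levels of Arg1, Fbp1 and Egr2 was not tested.

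Markers of other cells moved too, though the rises among neutrophil markers were near the shares of all genes. After silica 11.5% of all genes rose and 8.21% fell in WT, and 16.8% rose and 15.9% fell in RagKO. In the difference between the silica effects 11% were higher and 12.3% lower. Of 16 lung epithelium markers 11 rose and 1 fell in WT after silica and 1 rose and 5 fell in RagKO, opposite to Arg1 and Fbp1, with list means from 1.71 to 1.78 in WT saline, 2.44 to 2.66 in WT silica, 2.62 to 2.69 in RagKO saline and 2.34 to 2.53 in RagKO silica. Epithelium markers that fell in RagKO numbered 3 without RagKO silica replicate 2. Of 13 fibroblast and smooth muscle markers 9 rose in WT (5 without WT silica replicate 1), and in RagKO 3 rose and 8 fell. Of 12 natural killer cell markers, the cells that the antibody was given to remove, 6 rose and 0 fell in WT (median 0.60), 0 rose and 8 fell in RagKO (median -0.66), and 7 were lower in the difference between the silica effects, also opposite to Arg1 and Fbp1. Of 12 neutrophil markers, 2 rose and 5 fell in WT and 3 rose and 5 fell in RagKO, with 3 falls without WT silica replicate 2 or RagKO silica replicate 1. The eosinophil granule protein gene Prg2, with values on 6 arrays and therefore not tested, read 2.66 and 2.84 in WT saline, 0.75 on the measured WT silica array, 0.42 on the measured RagKO saline array, and 0.84 and 1.90 in RagKO silica. Hepatocytes express both Arg1 and Fbp1, and of the 2 hepatocyte markers measured on all arrays none passed in WT and 1 rose in RagKO (Ahsg, 0.40). The part of these cells in the results was not tested.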

How the data were processed

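RNA of lung leukocytes (Cy5) and a reference RNA (Cy3) were hybridised to 8 2-colour arrays, all in 1 dye orientation, per the labels' protocols. The deposited values are 1 log10 ratio per probe and array, made by the authors. The base is inferred from the values, whose largest ratio is 737-fold as log10 and 7.3-fold as log2. Background correction, dye normalization, averaging and filters were not given in the sources used here, so low values may be compressed. The number of arrays limits the precision. Values were multiplied by 3.3219 to give log2. Of 16251 probes, 14716 had a value on all 8 arrays. Platform annotation gave 14488 probes 1 gene symbol, 10 several and 1753 none, and probes of a gene were averaged into 11597 genes. limma 3.58.1 in R 4.3.3 (lmFit, eBayes) fitted 4 group means with 4 residual degrees of freedom, with Benjamini-Hochberg adjustment over all genes and a threshold of 0.05. The fit was tested on simulated data. The members and gene lists were chosen with earlier results of these data known. Named genes were the members, the 6 genes most like each, up to 4 called genes a list and comparison by smallest p, and 19 close relatives. Ms4a1, Cd5, Xist, Eif2s3y, Rn28s1, Slc7a2 and Prg2 were named after their values were seen. Sequences are from RefSeq tables of GRCm38.p6. Alternatives were median centring, quantile normalization, a replicate block, a trended robust variance, another probe filter, another probe summary, the values read as log2, and each array left out.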

Additional observations from a re-analysis of the deposited data

Results flagged for a closer look

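With 2 arrays a group, no array could be tested as standing apart from its group. The search covered the pathway lists, the relatives given and the genes most like each member, and the number of genes searched was not recorded. For 19 of them the silica effect in RagKO differed from that in WT with opposite signs. The difference is given as RagKO minus WT on the log2 scale. Of all genes, 1.22% passed downward in WT and upward in RagKO, and 2.86% passed the opposite way. For Arg1 (5.72) and Fbp1 (7.96) both silica arrays lay below both saline arrays in WT and above both in RagKO. The difference between the effects was not tested for these 2 genes, since the pattern led to their choice. For the other genes the difference passed the test in limma. It was positive for Ccl24 (5.65), Clca1 (4.23), Chil3 (3.39), Chil4 (2.75), Gatm (2.33), Lipa (2.25), Tent5c (2.16), Slamf7 (2.04), Ocstamp (2.02), Igf1 (1.96), Clec10a (1.81), Timp1 (1.78), Ppig (1.64) and Retnla (1.16). It was negative for Ldhb (-2.69), Cd36 (-1.71) and Azin1 (-1.01). The genes named for their likeness to Arg1 or Fbp1 were chosen for this pattern, so their differences are no independent support.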

How the results depend on the processing

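No difference of Arg1, Fbp1 or Egr2 turned sign under the alternatives run. Read as log2, the deposited values give silica differences in WT of -0.7718 for Arg1, -1.052 for Fbp1 and 0.1448 for Egr2, and in RagKO of 0.9511, 1.345 and 0.5511. The genotype difference (RagKO minus WT) in saline-treated mice was then -0.6667, -1.309 and -0.4901, that in silica-treated mice 1.056, 1.088 and -0.08384, and the silica effects differed by 1.723, 2.397 and 0.4063. Quantile normalization moved Egr2 to 0.3628 for silica in WT, -0.1374 for RagKO minus WT after silica and 1.479 for the difference between effects. Leaving out 1 array at a time gave silica differences in RagKO of 2.528 to 3.79 for Arg1, 3.739 to 5.198 for Fbp1 and 1.76 to 1.902 for Egr2. RagKO minus WT ran after silica from 2.878 to 4.14 for Arg1 and 2.886 to 4.345 for Fbp1, and after saline from -1.699 to -1.557 for Egr2. The difference between effects ran from 5.092 to 6.354, 7.234 to 8.692 and 1.279 to 1.421. Genes called for silica in WT, 2283 in all, ran from 861 (without WT saline replicate 2) to 2389, with 940 without WT saline replicate 1 and 1130 without WT silica replicate 2. In RagKO, 3795 became 2380 (without RagKO saline replicate 1) to 3842, with 2393 without RagKO silica replicate 1. For the difference between effects, 2697 became 1647 to 2485, with 1649 and 1647 without WT saline replicate 1 or 2. A lone array is assumed to vary like the other groups. List counts without single silica arrays and the marker sum without Chil3 were added after seeing the data. Same-numbered arrays showed little shared deviation (r from -0.0728 to 0.111), which cannot tell whether the samples were paired. A replicate block gave 2244 genes in WT and 3795 in RagKO. Background flags were not used here, so the signal over background behind low ratios is unknown.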
